A study of Mus musculus with 23 samples.

Results

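The genes described here lie on mouse chromosome 13 between positions 60000001 and 70000000 of GRCm38, a segment that holds a cluster of zinc finger genes. They are the genes of that segment with a mean above 1 CPM (counts per 1000000 counts assigned to genes) over 23 hippocampus RNA-seq libraries, leaving out 1 gene of the respiratory chain, Uqcrb, by its symbol. The members were selected on position and on this mean CPM over both strains, and the segment itself was chosen by its strain effects in these libraries, so the strain values are given as a description and support nothing by themselves. Of 55335 genes in the table, 376 start in the segment, 168 of these had no count in any library, 67 passed the level and 66 are members. The members nearest the level were Zfp429 at 1.07 CPM, Gm3604 at 1.08 CPM and Zfp456 at 1.14 CPM, and the genes just under it were Zfp808 at 0.973 CPM, Gm35161 at 0.883 CPM and 9430065F17Rik at 0.8289 CPM. Zfp429, Zfp456, Gm10767 and F630042J09Rik averaged above 1 CPM in only one of the strains. All 66 passed the filter on low counts in each strain comparison, 64 passed it in WT-S against WT-D (not Zfp457 and F630042J09Rik) and 65 in 3xTg-S against 3xTg-D (not Zfp429).

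Hippocampi were dissected from mice of 6 groups. WT mice were of a C57BL/6J x 129S1 hybrid background, and 3xTg mice (3xTg-AD, a model of Alzheimer's disease) carried transgenes for mutant human APP and mutant human tau, which are driven in neurons by the Thy1.2 element, on a mixed B6;129 background. WT-8M and 3xTg-8M were untreated at 8 months (4 mice each). At 10 months, after 28 days of infusion into the cerebral ventricles, WT-D and 3xTg-D (4 each) had received 0.8% DMSO vehicle, and WT-S (3) and 3xTg-S (4) had received the SCD inhibitor, which blocks stearoyl-CoA desaturase, at 80 µM in the same vehicle. All were females, as the methods of the study state. The lines are separate stocks, so effects of the transgenes and of other differences between the lines cannot be told apart. Age and infusion also go together and cannot be told apart. The labels of the 8-month libraries end in L.HPP (l.HPP in WT-8M replicate 2) and those of 10 months in HPP. What the L marks is not stated, and it cannot be told apart from age and infusion either. Libraries held 12802267 to 36686413 gene counts at 8 months and 12992547 to 17575615 at 10 months, so that 1 count was worth 0.0273 to 0.0781 CPM. All 6 hippocampal marker genes were detected, with a summed level of 372 to 537 CPM per library. The strains overlapped in this sum at 8 months. At 10 months every 3xTg library lay below every WT library of the same treatment. The ranges were 407 to 454 against 474 to 531 CPM (vehicle), and 380 to 447 against 493 to 537 CPM (inhibitor). Single markers went both ways. With vehicle, mean C1ql2 was 24.2 CPM in 3xTg-D against 61.9 CPM in WT-D, but mean Spink8 was 24.7 against 11.8 CPM. Other cell types varied between libraries. The summed level of 12 choroid plexus genes ran from 37.7 to 384 CPM, and that of 4 oligodendrocyte genes was 3483 to 4553 CPM in WT-S and 5291 to 6170 CPM in 3xTg-S. The part of these levels in the results was not tested. In bulk tissue, fewer cells that express a gene and less RNA per cell cannot be told apart.

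Zinc fingers of the C2H2 type are small folds, held by a zinc ion between a pair of cysteines and a pair of histidines, that read DNA when strung together in tandem arrays. Many such proteins of mammals also carry a KRAB domain, which recruits the corepressor TRIM28 and silencing enzymes to the bound DNA, often over old retrotransposons. Their genes multiply by tandem duplication and evolve fast. Rsl1 and its relatives on this chromosome were named for the regulator of sex-limitation loci, which restrain male-pattern expression of liver genes such as sex-limited protein.

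Of the 66 members, 30 belonged to the zinc finger list by symbol or by at least 3 C2H2 fingers in the coding sequence, and 36 did not. The list ran from 2 fingers in Zfp367 to 30 in Zfp729b, with a median of 13. Its core was a tandem run of 23 genes that started between 67 and 68 Mb and spanned positions 67038596 to 67827002, with 18 genes on the minus strand and 5 on the plus strand. Close copies blur counts of single genes. The median zinc finger member shared 4.22% of its 75-base words with a gene it does not overlap, against 0% for the other members. The share was 14.5% for Rsl1 (mainly with Zfp456), 12.2% for Zfp429 (with Rsl1), 10.4% for Zfp874a (with Zfp874b) and 7.64% for Zfp457 (with Zfp458).

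The promoters of the cluster carried a shared sequence. Windows of 300 bases (250 before and 50 after the start of the gene, RefSeq, GRCm38.p6) were found for 54 members. The 4 zinc finger members with the largest mean strain differences are shown 5′ to 3′, as they stand in the C57BL/6J reference. The sequence of either line was not read. They are Zfp429 (chr13:67399718-67400017, minus strand), Zfp457 (chr13:67306363-67306662, minus strand), Rsl1 (chr13:67172932-67173231, plus strand) and Zfp874a (chr13:67451575-67451874, minus strand). Capitals mark matches to the 18-letter pattern ANTTNTGGGANNTGTAGT. Its part from TGGGA on is found in the sequence that the activator ZNF143 is known to recognise.
Zfp429: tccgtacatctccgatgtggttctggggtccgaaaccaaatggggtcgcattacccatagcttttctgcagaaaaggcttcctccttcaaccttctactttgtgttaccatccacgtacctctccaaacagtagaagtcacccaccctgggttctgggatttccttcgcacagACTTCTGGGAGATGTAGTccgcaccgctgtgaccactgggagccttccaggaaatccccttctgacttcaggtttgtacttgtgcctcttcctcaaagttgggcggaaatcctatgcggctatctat
Zfp457: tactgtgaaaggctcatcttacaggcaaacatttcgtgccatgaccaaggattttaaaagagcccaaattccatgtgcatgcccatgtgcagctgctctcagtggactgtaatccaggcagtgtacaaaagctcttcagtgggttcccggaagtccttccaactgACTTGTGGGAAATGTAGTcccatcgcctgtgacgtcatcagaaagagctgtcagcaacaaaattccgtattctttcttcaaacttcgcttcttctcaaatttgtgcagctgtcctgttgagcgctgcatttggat
Rsl1: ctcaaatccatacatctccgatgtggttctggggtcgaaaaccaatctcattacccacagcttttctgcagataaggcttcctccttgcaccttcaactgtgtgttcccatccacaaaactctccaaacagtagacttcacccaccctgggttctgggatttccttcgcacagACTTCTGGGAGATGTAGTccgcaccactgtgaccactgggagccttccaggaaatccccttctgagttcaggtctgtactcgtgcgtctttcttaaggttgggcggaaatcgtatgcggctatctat
Zfp874a: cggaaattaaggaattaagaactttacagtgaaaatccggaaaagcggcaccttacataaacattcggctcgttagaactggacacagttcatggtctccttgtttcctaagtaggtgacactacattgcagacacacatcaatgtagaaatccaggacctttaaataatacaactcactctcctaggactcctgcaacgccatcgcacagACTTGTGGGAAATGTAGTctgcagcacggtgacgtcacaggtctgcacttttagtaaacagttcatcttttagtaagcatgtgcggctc

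All 4 windows held the pattern in the forward direction, beginning 77 bases before the start of the gene in Zfp429 and Rsl1, 85 bases before it in Zfp457 and 39 before it in Zfp874a. Over whole windows, the pattern included, pairwise alignments had 46.5% to 55.5% identical positions, but Zfp429 and Rsl1 were 87.9% identical. The pattern was built from the windows of the 24 members that started between 67 and 68 Mb, after the 4 above had been read. The 6-letter word that most of them hold on either strand, TGTAGT, was in 23, and the flanking letters identical in the 21 windows with a single copy were kept. Its share in those windows is therefore fixed by the way it was made, and the contrast with windows elsewhere is a description, not a test. It was in 23 of the 24, the exception being Zfp459, and its first base lay 22 to 184 bases before the start of the gene in 20 forward and 3 reverse copies. Elsewhere in the segment it was in 0 of 30 windows. It was found in 1.85% of 271 windows of Zfp genes above 1 CPM elsewhere in the genome, in 0.334% of 11066 windows of all genes above 1 CPM and in 0.152%, or 41, of all 27025 windows. The 23 windows held 21 separate sites, since divergent neighbours shared one between Zfp65 and Zfp85os and another between 4930525G20Rik and Gm10037. Among the 19 of 23 zinc finger windows with the pattern were genes called between the strains and genes that were not, such as Zfp874a and its neighbour Zfp874b. Shorter promoter words were searched on both strands too. CCAAT stood in 40.7% of members' windows, 38.5% of those of genes above 1 CPM and 37.9% of all windows, TATAAA in 5.56%, 6.95% and 14.2%, and the GC box GGGCGG in 33.3%, 63.9% and 35.9%. The GC box was in 17.4% of the zinc finger windows. A match of letters shows neither binding nor use of the site.

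**Figure D1:**
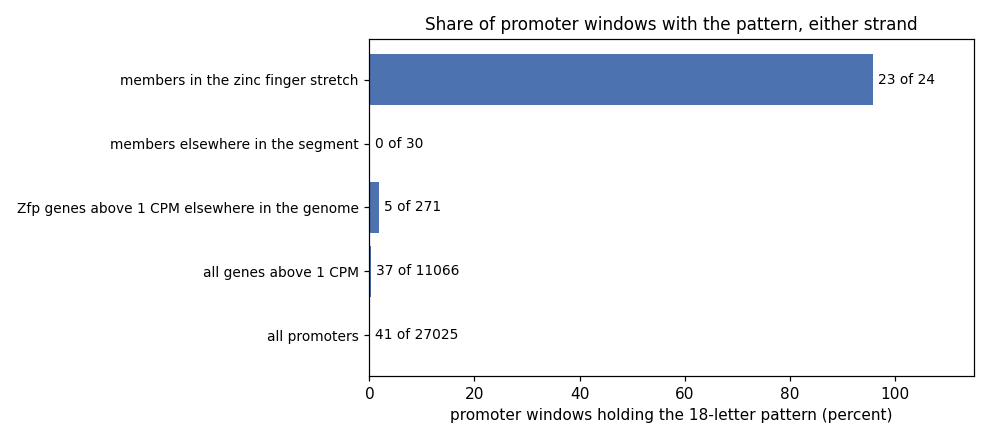
Percent of 300-base promoter windows that hold the 18-letter pattern on either strand, by set of genes, with counts beside the bars. It is in 23 of 24 windows of members that start in the zinc finger stretch (between 67 and 68 Mb) and in 0 of 30 windows of the other members. The pattern was built from those 24 windows, so the contrast is a description.

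The 3xTg and WT strains differed at a limited set of members, and most of these were lower in 3xTg. In 3xTg-8M against WT-8M, 9 of 66 members were called (edgeR quasi-likelihood test, Benjamini-Hochberg adjusted p under 0.05 over all genes), 1 higher and 8 lower, where 2.58% of all 15483 genes tested were called (1.05% higher and 1.53% lower). In 3xTg-D against WT-D, 11 members were called, 2 higher and 9 lower, beside 1.39% of 15528 genes (0.638% higher and 0.753% lower). In 3xTg-S against WT-S, 9 were called, 4 higher and 5 lower, beside 1.32% of 15664 genes (0.613% higher and 0.702% lower). With 1 replicate left out the 3 counts ran from 6 to 10, 7 to 12 and 4 to 7, with 7 without 3xTg-D replicate 2 and 4 without WT-S replicate 2 (5 without 3xTg-S replicate 2, 3 or 4). These 3 comparisons share no library. Together they called 16 members, 4 higher and 12 lower in 3xTg, and each of the 16 had the same sign in all 3. They were 24.2% of members, beside 3.55% (540) of the 15194 genes tested in all 3. Zfp429, Rsl1, Zfp85os and Zfp874a were called in all 3, or 6.06% of members, beside 0.454% of the 15194 genes tested in all 3. The sign agreed in all 3 comparisons for 41 members (62.1%, 17 higher and 24 lower), beside 40.3% of all genes. The other 50 members were called in none of the 3. The groups did not overlap in 13, 29 and 24 members, beside 11.1%, 7.28% and 10.6% of genes. At an unadjusted p under 0.01 there were 14, 24 and 20 members, beside 6.88%, 4.95% and 4.14%, and at an unadjusted p under 0.05 there were 24, 32 and 26, beside 17.4%, 13.1% and 10.6%. Since the choice of segment used these contrasts, nothing is read from the gap to the other genes.

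The called members were zinc finger genes and other genes alike, and 11 of the 16 lay in the zinc finger stretch. The zinc finger list held 7 of the 16 (23.3% of its 30 genes), and the other members held 9 (25.0% of 36). Of the 29 members that start between 67 and 68 Mb, a boundary set after the list was seen, these 11 were called in at least 1 of the 3 comparisons. The remaining 5 were Fancc and Zfp367 upstream, Gm10767 just before the stretch, and Srd5a1 and Med10 near the far end. Median log2 fold changes of the zinc finger members were -0.17, 0.06 and 0.04 in the 3 comparisons, beside 0.01, 0.00 and 0.00 for all genes tested. The median size without sign was 0.24, 0.28 and 0.28, beside 0.12, 0.09 and 0.09 for all genes. The flanking 50 to 60 Mb had 0 of 79 genes called in each of the 3, and 70 to 80 Mb had 1, 3 and 1 of 39. A segment of chromosome 4 (140 to 150 Mb) had 7, 0 and 0 of 74, and the 332 Zfp genes elsewhere had 8, 3 and 3.

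**Figure D2:**
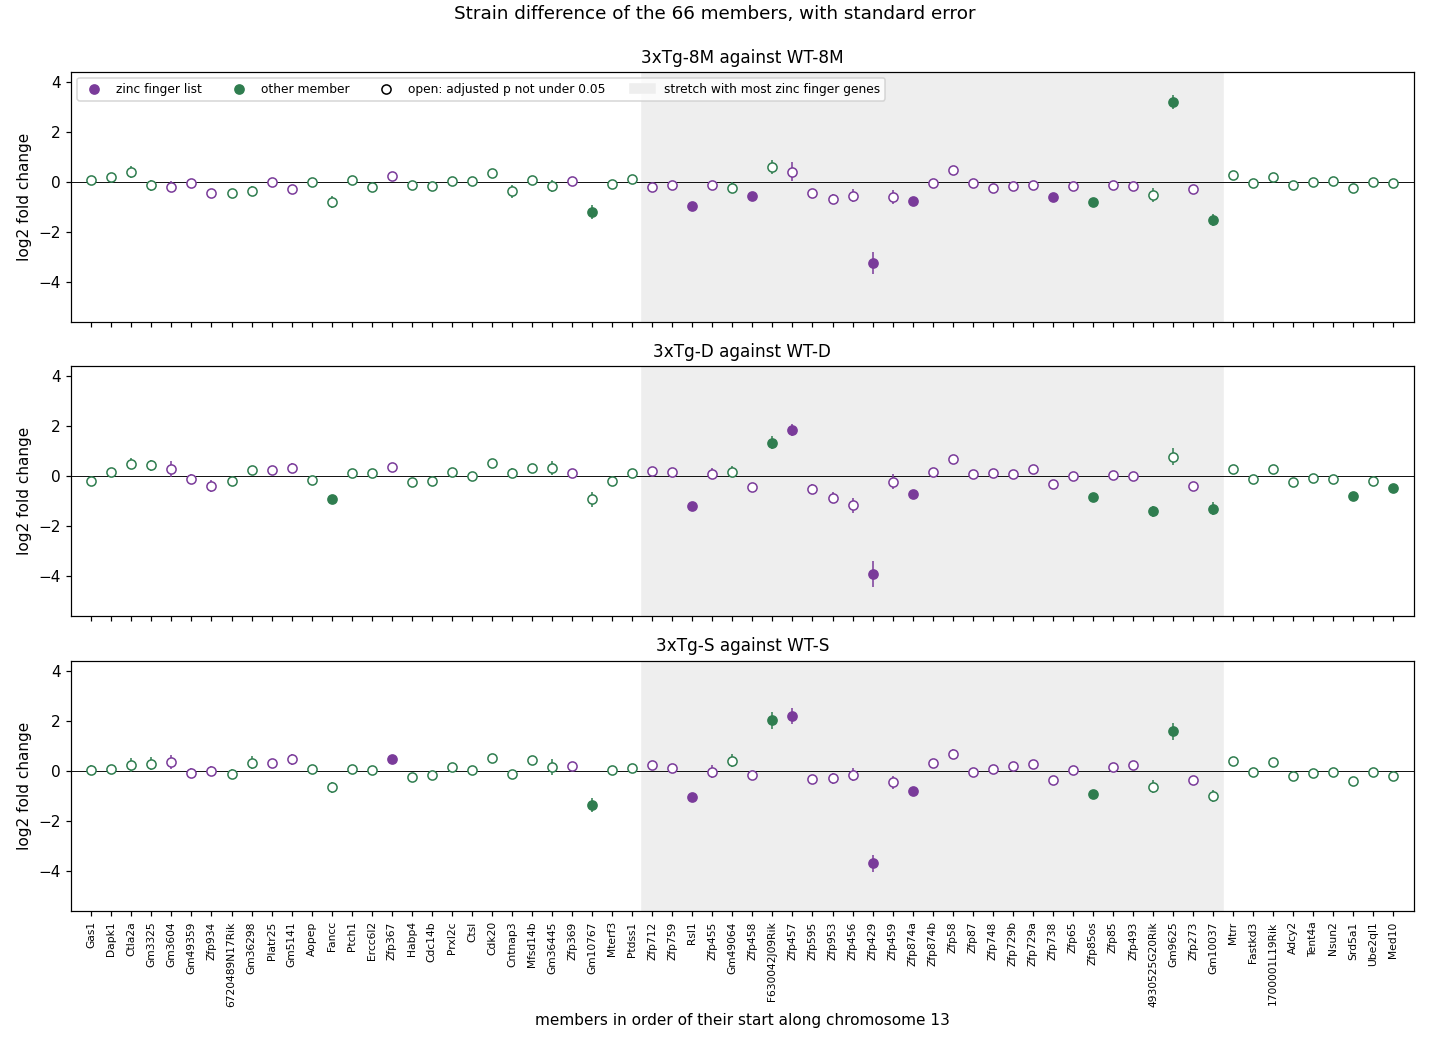
Log2 fold change of each of the 66 members (y axis, with standard error) in the 3 strain comparisons that share no library, in order along the chromosome (x axis). Filled points have an adjusted p under 0.05, purple marks the zinc finger list and grey the stretch between 67 and 68 Mb. Zfp429 is the lowest point in each panel, between -3.24 and -3.90.

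**Figure D3:**
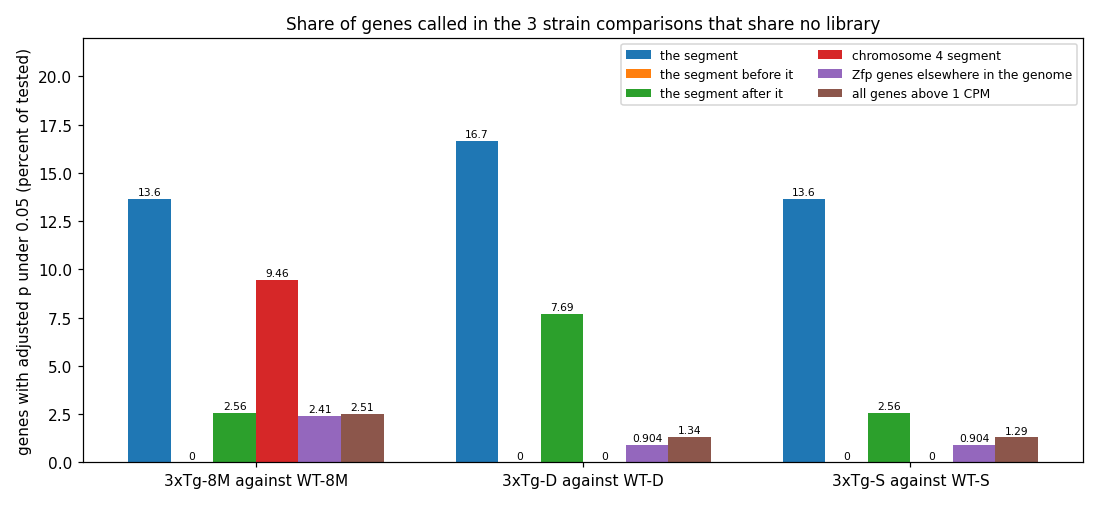
Percent of tested genes with an adjusted p under 0.05 (y axis) in the 3 strain comparisons (x axis) for the segment, its flanks, a segment of chromosome 4, Zfp genes elsewhere and all genes above 1 CPM. The segment stands at 13.6%, 16.7% and 13.6%, by the contrast that chose it.

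Zfp429, a zinc finger gene with 10 fingers, was nearly silent in 3xTg. It was at 1.28, 0.854, 2.04 and 1.57 CPM in WT-8M, 2.56, 1.88, 2.89 and 2.05 CPM in WT-D, and 2.39, 2.67 and 2.47 CPM in WT-S. The 3xTg libraries were at 0.182, 0, 0.225 and 0.130 CPM at 8 months, at 0.361, 0, 0 and 0.279 CPM with vehicle and at 0.123, 0.133, 0.146 and 0.338 CPM with the inhibitor, which is 0 to 6 counts per library. All WT libraries lay above all 3xTg libraries. Its log2 fold change was -3.24 ± 0.44 (SE) at 8 months (adjusted p = 0.00196), -3.90 ± 0.52 with vehicle (adjusted p = 0.00203) and -3.71 ± 0.33 with the inhibitor (adjusted p = 9.08e-05). Counts this low leave the size of the fold imprecise.

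Rsl1, with 12 fingers and a near copy of the Zfp429 promoter, was about halved rather than lost. It stood at 5.64, 5.06, 6.36 and 4.89 CPM in WT-8M and at 3.10, 2.58, 2.55 and 2.80 CPM in 3xTg-8M. With vehicle the levels were 6.71, 6.11, 6.18 and 6.35 CPM in WT and 2.74, 2.77, 2.98 and 2.58 CPM in 3xTg. Under the inhibitor they were 6.31, 7.58 and 5.01 CPM in WT and 3.33, 3.32, 2.56 and 2.84 CPM in 3xTg. The strains did not overlap in any group, and the log2 fold changes were -0.97 ± 0.14 (adjusted p = 0.00317), -1.21 ± 0.12 (0.000185) and -1.06 ± 0.18 (0.0134). The last was 0.0678 at most with 1 replicate left out, missing the threshold without 3xTg-S replicate 4 or WT-S replicate 2. A list of 5 liver genes, under the Rsl loci or next to one that is, was read beside it. C4a, which encodes sex-limited protein, was at 0.558 to 1.87 CPM in every group and was called in no comparison, with log2 fold changes of 0.16, 0.10 and 0.42. C4b, the complement gene next to it, averaged 77.5 ± 17.2 CPM (SD, n = 4) with vehicle in 3xTg against 37.99 ± 7.68 CPM (n = 4) in WT, a log2 fold change of 1.02 ± 0.16 (adjusted p = 0.00559), and 1.06 ± 0.18 in 3xTg-S against WT-D (0.00757). It was not called by edgeR at 8 months (0.75 ± 0.19, adjusted p = 0.0633), where the DESeq2 likelihood ratio test called it (0.00424), nor by either tool between the groups given the inhibitor (0.61 ± 0.19 and 0.195 by edgeR). Summed microglial markers stood at 299 to 334 CPM in WT-8M and 342 to 399 CPM in 3xTg-8M. With vehicle they were at 297 to 344 CPM in WT-D and 294 to 449 CPM in 3xTg-D. With the inhibitor they were at 312 to 333 CPM in WT-S and 362 to 440 CPM in 3xTg-S. With vehicle, summed astrocyte markers were at 1089 to 1285 CPM in WT-D and 1264 to 1434 CPM in 3xTg-D. Summed oligodendrocyte markers were at 3717 to 4858 CPM in WT-D and 3402 to 5353 CPM in 3xTg-D. The part of any of these cell types was not tested. Cyp2d9, Mup1 and Mup20 were too low to test.

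Zfp874a, with 10 fingers, was the most abundant of these. Its levels were 19.7, 19.7, 22.1 and 17.7 CPM in WT-8M against 10.7, 11.8, 10.5 and 13.2 CPM in 3xTg-8M. With vehicle they were 22.7, 23.2, 21.9 and 20.7 CPM against 13.1, 12.8, 16.6 and 11.5 CPM, and with the inhibitor 22.1, 23.02 and 17.6 CPM against 11.4, 11.9, 10.7 and 13.1 CPM. Every WT library was above every 3xTg library. The log2 fold changes were -0.77 ± 0.10 (adjusted p = 0.00144), -0.72 ± 0.10 (0.00246) and -0.83 ± 0.12 (0.00345). Its tandem neighbour Zfp874b, which has the same number of fingers, had log2 fold changes of -0.03 ± 0.07, 0.18 ± 0.11 and 0.30 ± 0.09 and was called in none of the 3. The 12 members with the largest mean differences among those called form 66 pairs. Of these, Rsl1 and Zfp874a deviated together most within groups (r = 0.576 over 23 libraries). Rsl1 and Zfp457 were at -0.48 and Rsl1 and Zfp429 at -0.0035, a description over libraries that share depth and preparation.

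Zfp457, with 18 fingers, went the other way at 10 months. It was at 0.569, 0.604, 0.526 and 0.934 CPM in WT-D against 1.95, 2.44, 3.11 and 2.09 CPM in 3xTg-D, and at 0.308, 0.505 and 0.798 CPM in WT-S against 2.84, 1.79, 2.71 and 2.64 CPM in 3xTg-S. The strains did not overlap, with log2 fold changes of 1.84 ± 0.25 (adjusted p = 0.00207) and 2.19 ± 0.33 (0.00492). At 8 months WT mice were not alike. Replicates 1, 2 and 4, at 2.24, 2.49 and 2.499 CPM, lay in the range of 3xTg-8M (2.40, 3.36, 2.48 and 2.35 CPM) or just under it, and WT-8M replicate 3, at 0.303 CPM, lay with the WT mice of 10 months. The log2 fold change there was 0.41 ± 0.38 (adjusted p = 0.603) and without that library 0.12 ± 0.18 (0.759). The strain difference was larger with vehicle at 10 months than untreated at 8 months by 1.43 ± 0.52 on the log2 scale, which was not called (adjusted p = 0.463), and by 1.72 ± 0.30 without WT-8M replicate 3, which was (0.0402).

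F630042J09Rik, a non-coding gene that lies between Zfp458 and Zfp457 on the opposite strand to both, had a like pattern. It read 1.14, 0.712, 0.530 and 1.37 CPM in WT-8M and 1.64, 1.72, 1.58 and 1.17 CPM in 3xTg-8M, with an overlap between the strains. It then read 0.455, 0.805, 0.724 and 0.498 CPM in WT-D against 1.30, 1.92, 1.52 and 1.60 CPM in 3xTg-D, and 0.308, 0.577 and 0.435 CPM in WT-S against 1.42, 2.52, 1.68 and 1.69 CPM in 3xTg-S, with none. The log2 fold changes were 0.60 ± 0.28 (adjusted p = 0.294), 1.34 ± 0.26 (0.0242) and 2.02 ± 0.34 (0.0115). The vehicle call was lost without 3xTg-D replicate 2 or 4 or WT-D replicate 1 or 4 (adjusted p up to 0.0883), and the inhibitor call without WT-S replicate 3 (0.0634). WT-8M replicate 3 was again the lowest of its group. Zfp458, which starts across a short gap from F630042J09Rik in the opposite direction, was lower in 3xTg, by -0.56 ± 0.11 at 8 months (adjusted p = 0.0249, and up to 0.0724 without one of 5 of the 8 libraries). Its log2 fold changes were -0.43 ± 0.12 with vehicle (0.140) and -0.19 ± 0.17 with the inhibitor (0.786).

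**Figure D4:**
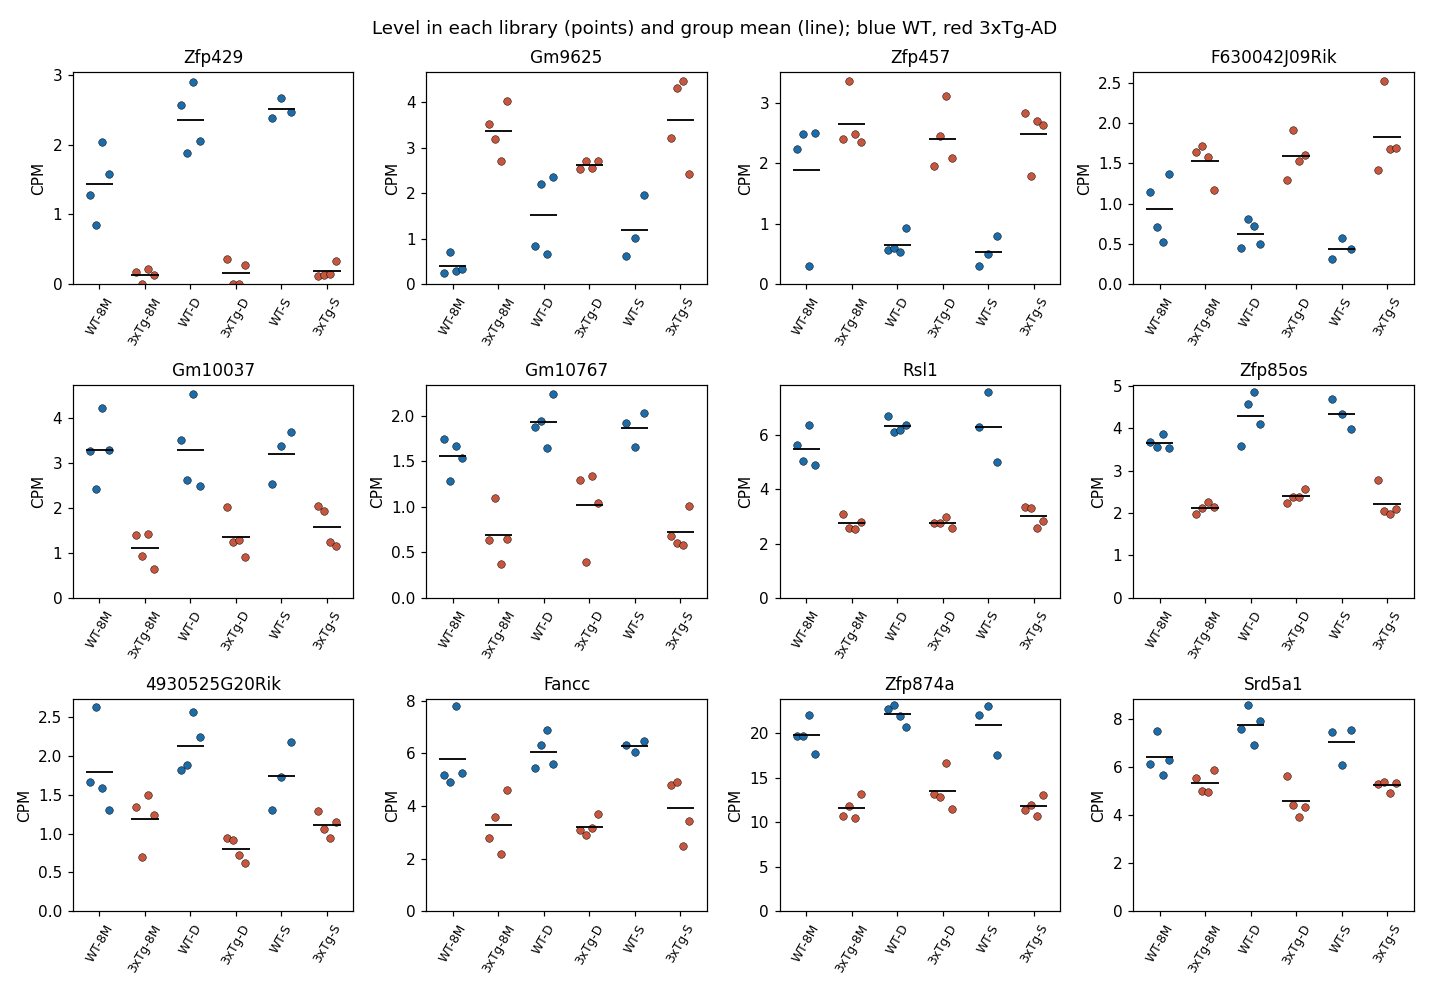
Level in CPM (y axes start at 0) of the 12 members with the largest mean strain difference among those called, in each library (points) and as group mean (line), for the 6 groups (x axis). In Zfp457, 3 of the 4 WT-8M libraries sit at the level of 3xTg and 1 at 0.303 CPM.

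Other transcripts of the stretch, with no fingers, were also among the largest differences. Zfp85os, a non-coding RNA transcribed opposite to Zfp85, was at 3.53 to 3.86 CPM in WT-8M, 3.58 to 4.87 CPM in WT-D and 3.99 to 4.70 CPM in WT-S, and at 1.97 to 2.78 CPM across the 12 libraries of 3xTg. It was lower in 3xTg by -0.79 ± 0.14, -0.85 ± 0.15 and -0.96 ± 0.18 (adjusted p = 0.0103, 0.0166 and 0.0271). The calls were lost without 3xTg-8M replicate 1 (0.0544), without 3xTg-D replicate 1 or 2 (up to 0.0641) and without any one of 6 of the 7 libraries given the inhibitor (up to 0.0936). Zfp85 itself, on the other strand, had log2 fold changes of -0.10, 0.03 and 0.15 and was not called. How the counting treated strand is not given, so reads of the pair may not be separable. Gm10037, a short coding gene at the end of the cluster, was at 3.27, 2.42, 4.24 and 3.29 CPM in WT-8M against 1.40, 0.937, 1.43 and 0.652 CPM in 3xTg-8M. It was at 3.53, 2.62, 4.54 and 2.49 CPM in WT-D against 2.02, 1.25, 1.28 and 0.906 CPM in 3xTg-D, and at 2.54, 3.39 and 3.70 CPM in WT-S against 2.04, 1.92, 1.24 and 1.15 CPM in 3xTg-S. The strains were separate throughout, with log2 fold changes of -1.53 ± 0.25 (adjusted p = 0.00640), -1.29 ± 0.27 (0.0406) and -1.01 ± 0.25 (0.0883). The vehicle call was lost without 3xTg-D replicate 2, 3 or 4 or WT-D replicate 1 or 3 (up to 0.125). The non-coding 4930525G20Rik, which shares its promoter site with Gm10037 and runs the other way, was at 1.66, 2.63, 1.59 and 1.30 CPM in WT-8M and 1.34, 0.703, 1.501 and 1.24 CPM in 3xTg-8M. It was at 1.82, 1.88, 2.57 and 2.24 CPM in WT-D against 0.938, 0.925, 0.731 and 0.627 CPM in 3xTg-D, and at 1.31, 1.73 and 2.18 CPM in WT-S against 1.30, 1.06, 0.950 and 1.15 CPM in 3xTg-S. Of the 3 comparisons without shared libraries the vehicle one was called, at -1.41 ± 0.23 (adjusted p = 0.00732), beside -0.52 ± 0.28 and -0.64 ± 0.25.

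Gm9625, a processed pseudogene that lies inside 4930525G20Rik on the opposite strand, was the one member higher in every 3xTg library than in every WT library. Its WT levels were 0.245, 0.712, 0.303 and 0.342 CPM at 8 months, 0.853, 2.21, 0.658 and 2.37 CPM with vehicle and 0.616, 1.01 and 1.96 CPM with the inhibitor. The 3xTg levels were 3.53, 3.20, 2.70 and 4.04 CPM, then 2.52, 2.71, 2.56 and 2.72 CPM, then 3.21, 4.31, 4.46 and 2.43 CPM. WT mice of 10 months were thus spread from 0.616 to 2.37 CPM, while 3xTg mice kept to a narrower range in proportion. The log2 fold changes were 3.19 ± 0.29 (adjusted p = 8.27e-05), 0.78 ± 0.33 (0.334) and 1.57 ± 0.34 (0.0474). The last was lost without any one of 6 of the 7 libraries (adjusted p up to 0.176) and in the joint fit of all 10-month libraries (0.0571). The change of the strain difference from 8 months to vehicle at 10 months was -2.41 ± 0.49, with the smallest p of any member (unadjusted 0.000109, adjusted 0.105). This gene shares 33.1% of its 75-base words with another pseudogene, Gm8730, so its counts are uncertain. With the treatment of strand unknown, reads may also not be separable between Gm9625, 4930525G20Rik and Zfp273, which overlap.

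Gm10767, a gene of 103 codons that overlaps Uqcrb and Mterf3 on the opposite strand, was lower in 3xTg. With the treatment of strand unknown, reads may not be separable between these genes. Gm10767 also shares 11.8% of its 75-base words with other genes, mainly Olfr482. It was at 1.74, 1.28, 1.66 and 1.54 CPM in WT-8M, 1.88, 1.95, 1.64 and 2.24 CPM in WT-D and 1.92, 1.66 and 2.03 CPM in WT-S. The 3xTg levels were 0.638, 1.09, 0.375 and 0.652 CPM, then 1.30, 0.396, 1.34 and 1.05 CPM, then 0.679, 0.597, 0.585 and 1.01 CPM. Within each comparison the strains were separate, with log2 fold changes of -1.21 ± 0.27 (adjusted p = 0.0378), -0.93 ± 0.29 (0.187) and -1.37 ± 0.27 (0.0309). The call at 8 months was lost without any one of 7 of the 8 libraries (adjusted p up to 0.149), and that with the inhibitor without any one of 6 of the 7 (up to 0.124) and by the DESeq2 likelihood ratio test (0.0616).

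Called members away from the zinc finger stretch included coding genes of several roles. Fancc, a subunit of the Fanconi anaemia core complex that repairs DNA crosslinks, was at 5.18, 4.91, 7.79 and 5.27 CPM in WT-8M against 2.80, 3.59, 2.18 and 4.63 CPM in 3xTg-8M. With vehicle it was at 5.46, 6.31, 6.91 and 5.60 CPM against 3.10, 2.91, 3.17 and 3.69 CPM, and with the inhibitor at 6.31, 6.06 and 6.46 CPM against 4.81, 4.91, 2.49 and 3.45 CPM. Over all 23 libraries the strains were separate for Fancc by a hair, at 4.913 CPM in WT-8M replicate 2 and 4.910 CPM in 3xTg-S replicate 2. Its log2 fold changes were -0.80 ± 0.23 (adjusted p = 0.0969), -0.93 ± 0.14 (0.00472) and -0.68 ± 0.20 (0.194). Fancc overlaps Aopep (mean 31.7 CPM) on the opposite strand, so reads of this pair may not be separable. Srd5a1, the steroid 5-alpha-reductase that makes precursors of neurosteroids such as allopregnanolone, was at 6.13, 7.48, 5.67 and 6.30 CPM in WT-8M and 5.53, 4.999, 4.95 and 5.86 CPM in 3xTg-8M. It was at 7.57, 8.59, 6.91 and 7.91 CPM in WT-D against 5.63, 4.42, 3.90 and 4.32 CPM in 3xTg-D, and at 7.47, 6.06 and 7.54 CPM in WT-S against 5.31, 5.37, 4.898 and 5.34 CPM in 3xTg-S. Of these 3 comparisons the vehicle one was called, at -0.78 ± 0.14 (adjusted p = 0.0133, and 0.0595 without 3xTg-D replicate 2), beside -0.25 ± 0.13 at 8 months and -0.43 ± 0.14 with the inhibitor. Srd5a1 lies inside Nsun2 (mean 91.4 CPM) on the opposite strand, and reads of this pair may not be separable either. Med10, a subunit of the Mediator complex that links activators to RNA polymerase, was lower in 3xTg-D (24.3 ± 0.596 CPM, SD, n = 4) than in WT-D (33.2 ± 0.868 CPM, n = 4), by -0.47 ± 0.06 (adjusted p = 0.00138), beside -0.06 ± 0.09 at 8 months and -0.21 ± 0.10 with the inhibitor, which were not called. Zfp367, a factor of cell cycle genes with only 2 fingers found, was higher in 3xTg-S (33.6 ± 4.51 CPM, n = 4) than in WT-S (24.1 ± 1.98 CPM, n = 3), by 0.48 ± 0.10 (adjusted p = 0.0477), a call lost without any one of the 7 libraries (up to 0.190) and in the joint fit of 10 months (0.0701). At 8 months and with vehicle its log2 fold changes were 0.25 ± 0.09 and 0.38 ± 0.11, which were not called. In the cluster, Zfp738 was lower at 8 months by -0.62 ± 0.08 (adjusted p = 0.00149), from 42.2 ± 3.19 to 27.6 ± 2.88 CPM, with -0.30 ± 0.09 with vehicle and -0.38 ± 0.11 with the inhibitor, which were not called.

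Most of the remaining members of known role showed no called difference. Among genes of DNA repair and the cell cycle, Ercc6l2 and Cdc14b were not called. Neither were the Hedgehog receptor Ptch1 and its coreceptor Gas1, the lysosomal protease Ctsl, the methionine synthase reductase Mtrr, or the RNA methyltransferase Nsun2. Abundant genes of neuronal signalling also were not called. Dapk1, a death-associated kinase, had log2 fold changes of 0.21, 0.18 and 0.05, and Adcy2, an adenylyl cyclase, had -0.11, -0.24 and -0.22. Corepressors and heterochromatin enzymes that work with KRAB proteins, among them Trim28 and Setdb1, were read beside the members. Of 24 symbols listed, 23 were matched and 22 were tested. In the strain comparisons 0 were called, beside 2.58%, 1.39% and 1.32% of all genes in the 3 without a shared library. At an unadjusted p under 0.05 there were 4, 1 and 1, beside 17.4%, 13.1% and 10.6%. The DESeq2 likelihood ratio test also called 0. At such shares 0 calls among 22 genes tells little, and nothing is read from it.

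In 3xTg-S against WT-D, which shares libraries with the comparisons above, 13 members were called, 4 higher and 9 lower, beside 2.29% of 15567 genes (1.19% higher and 1.1% lower), and 8 without 3xTg-S replicate 1. The groups did not overlap in 26 members, beside 10.1% of genes, and 23 and 33 members had an unadjusted p under 0.01 and 0.05, beside 6.59% and 16.9%. A pair of members was called in none of the other 3 comparisons. Zfp58, with 15 fingers, was higher by 0.83 ± 0.17 (adjusted p = 0.0225, and up to 0.0727 without 3xTg-S replicate 1 or 2 or WT-D replicate 2 or 4), beside 0.47, 0.68 and 0.68, and Cdk20, a kinase of the cell cycle and cilia, by 0.60 ± 0.12 (0.0177, and 0.0615 without 3xTg-S replicate 1), beside 0.37, 0.55 and 0.52. In both genes the 3xTg and WT libraries did not overlap in any of the 4 comparisons. Zfp429 (-3.63 ± 0.34), Rsl1 (-1.09 ± 0.13), Zfp874a (-0.92 ± 0.08) and Zfp457 (1.89 ± 0.25) had values near those of the other comparisons.

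The inhibitor comparisons were not used to choose the segment, and they called no member. In 3xTg-S against 3xTg-D, 0 of 65 tested members passed, beside 0% of 15530 genes, with 1 member at an unadjusted p under 0.01 (2.52% of genes) and 4 under 0.05 (11.2%). The groups did not overlap in 3 members, beside 6.89% of genes. The smallest p belonged to Zfp738, at 28.6 ± 1.08 CPM with the inhibitor and 33.9 ± 3.53 CPM with vehicle (log2 fold change -0.25 ± 0.07, unadjusted p = 0.00501, adjusted p = 0.378). It was followed by Zfp729a, with 27 fingers (-0.17 ± 0.07, adjusted p = 0.424), and Zfp456 (0.61 ± 0.27, adjusted p = 0.436). In WT-S against WT-D, 0 of 64 passed, beside 0% of 15724 genes, with 0 members at an unadjusted p under 0.01 (0.375% of genes) and 2 under 0.05 (3.42%), and the groups did not overlap in 1 member (4.94% of genes). The first by p were Zfp493 (-0.42 ± 0.17, adjusted p = 0.981) and Zfp874b (-0.25 ± 0.11, adjusted p = 0.981), and the next was Zfp458 (-0.32 ± 0.17, adjusted p = 0.981). The median size of a member's inhibitor effect was 0.12 in 3xTg and 0.10 in WT, beside 0.09 and 0.08 for all genes. For the members with the largest strain differences the effects were not called in either strain. In WT they were -0.02 ± 0.15 for Rsl1, -0.10 ± 0.10 for Zfp874a, 0.08 ± 0.21 for Zfp429 and -0.35 ± 0.50 for Gm9625. In 3xTg they were 0.12 ± 0.15 for Rsl1 and -0.21 ± 0.11 for Zfp874a, and the widest were -0.50 ± 0.36 for Gm10767, 0.47 ± 0.24 for 4930525G20Rik and 0.44 ± 0.20 for Gm9625 (adjusted p = 0.599, 0.494 and 0.438). The DESeq2 likelihood ratio test also called 0 members in both.

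**Figure D5:**
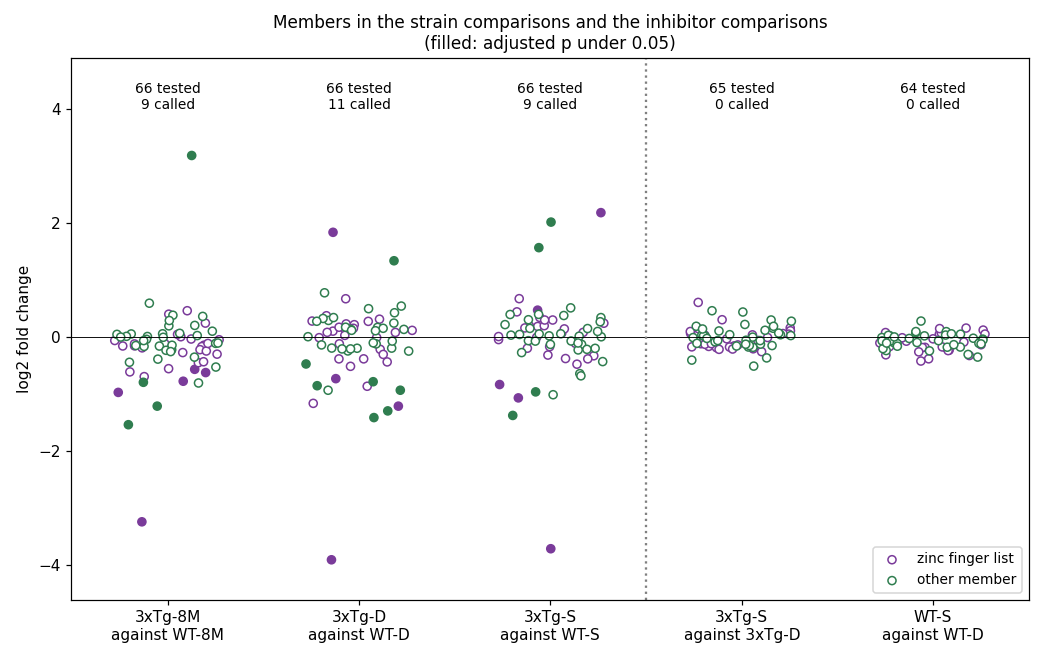
Log2 fold change (y axis) of each tested member in the 3 strain comparisons and the 2 inhibitor comparisons (x axis). Filled points have an adjusted p under 0.05 and purple marks the zinc finger list. No point is filled in the inhibitor comparisons.

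No member passed in the interactions either. Whether the inhibitor effect differed between the strains was tested over the 15 libraries of 10 months, and 0 of 66 members passed, beside 0% of 16262 genes, with 0 members at an unadjusted p under 0.01 (0.351% of genes) and 3 under 0.05 (2.32%). They were Zfp456 (0.99 ± 0.40), 4930525G20Rik (0.77 ± 0.33) and Med10 (0.25 ± 0.11), each with an adjusted p of 1.00. Whether the strain difference changed between untreated mice of 8 months and vehicle mice of 10 months was tested over 16 libraries. It called 0 members, beside 0.0621% of 16108 genes (0.031% in each direction), with 13 members at an unadjusted p under 0.05 (9.57% of genes) and 3 under 0.01 (2.19%). Gm9625 was called by the DESeq2 likelihood ratio test (adjusted p = 0.00260) and without a filter on low counts (0.00149), as the only member. After it, the smallest p values were those of Med10 (-0.41 ± 0.10, adjusted p = 0.276) and Ercc6l2 (0.36 ± 0.12, adjusted p = 0.447), a DNA repair helicase.

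Spread within groups was largest in members of low mean level. The median SD of log2(CPM + 0.1) within groups was 0.175 in WT and 0.169 in 3xTg, and 34 of 66 members varied more in WT. The largest WT spreads were those of Zfp457 (0.880), Gm9625 (0.736) and F630042J09Rik (0.442), all higher in 3xTg, and each had WT mice within or near the 3xTg range. The largest 3xTg spreads were those of Zfp429 (0.860), Gm10767 (0.554) and Gm10037 (0.444), all lower in 3xTg.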

How the data were processed

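Total RNA of dissected hippocampus was sequenced in 23 libraries, each from another animal as far as the animal numbers in the labels show. The deposited values are raw counts per gene, which the authors obtained by trimming with Trimmomatic 0.35 and aligning with STAR 2.5.1b to GRCm38. The strand setting and any collapsing of molecular identifiers are not given in the sources used here. Lines that name no gene held 24.7% to 30.9% of reads and were left out, and 0 sample columns were unmapped. Reads of a hybrid strain were placed on the C57BL/6J reference, and how strain differences in sequence affected the counts was not tested.

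Pairwise comparisons were fitted over all genes, with the libraries of the pair alone, in edgeR 4.0.16 in R 4.3.3 (filterByExpr, TMM, quasi-likelihood test, Benjamini-Hochberg adjusted p under 0.05 called). The 4-group fits gave the interactions. A standard error is the log2 fold change divided by the square root of F. The fits were tested on simulated data. Alternatives were DESeq2 1.42.0 (size factors, likelihood ratio test), no filter, an unadjusted p under 0.01, members above 5 CPM, each replicate left out and a joint fit of 10 months. CPM were computed from gene totals, and 1 pseudocount, 0.1 CPM, was used for spreads. Members, gene lists and the rule for named genes were chosen with earlier results of these data known. Named genes are the members called in at least 1 of the 3 strain comparisons without a shared library (all libraries printed for the 12 largest), those called in 3xTg-S against WT-D only, the 3 with the smallest p of each inhibitor comparison and interaction, the 3 of largest WT spread and the genes next to the threshold. Other names illustrate roles from the lists or were chosen after their values were seen (Zfp874b, Zfp85). Zinc fingers (C, 2 to 4 residues, C, 12 residues, H, 3 to 5 residues, H) and shared 75-base words were counted in Gencode M21 transcripts, in which all 66 members have the coordinates of the table, in place of the RefSeq proteins first planned. Promoter windows are those of RefSeq, and the 18-letter pattern was derived from those of the stretch after 4 had been read. Marker lists used for cell types were hippocampus, choroid plexus, thalamus, microglia, astrocyte and oligodendrocyte. One item of the genotype of the 3xTg line is not reported here.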

Additional observations from a re-analysis of the deposited data

Results flagged for a closer look

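Outlying libraries were sought in the 12 members with the largest mean strain differences among those called. Over these and the 5 groups of 4 libraries, 6 of 60 groups had 1 library far from the others by Dixon's criterion. Chance gives about 1 in 20. Zfp457 was at 0.303 CPM in WT-8M replicate 3 against 2.24 to 2.499 CPM in the others, and at 3.36 CPM in 3xTg-8M replicate 2 against 2.35 to 2.48 CPM. Fancc was at 7.79 CPM in WT-8M replicate 3 against 4.91 to 5.27 CPM. Zfp429 was at 0.338 CPM in 3xTg-S replicate 4 against 0.123 to 0.146 CPM, which is 5 counts against 2 in each other library. Zfp85os was at 2.78 CPM in 3xTg-S replicate 1 against 1.97 to 2.10 CPM. Srd5a1 was at 4.898 CPM in 3xTg-S replicate 3 against 5.31 to 5.37 CPM. WT-8M replicate 3 was also the highest of its group for Zfp429, Rsl1, Gm10037, Zfp85os and Zfp874a.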

How the results depend on the processing

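Of 42 called strain results of named members, 24 stayed called in each alternative run for them, 18 were lost in at least 1 and 7 in over 5 (Gm10767 at 8 months and with the inhibitor, Gm9625, Zfp367 and Zfp85os with the inhibitor, and 4930525G20Rik and Med10 in 3xTg-S against WT-D), and 0 changed sign. An unadjusted p under 0.01 called 14, 24, 20 and 23 members between the strains untreated, with vehicle, with the inhibitor and for 3xTg-S against WT-D, 1 in 3xTg-S against 3xTg-D and 3 in the strain by age interaction. The 42 members above 5 CPM alone gave 3, 3, 2 and 6 in the 4 strain comparisons. These were 7.14%, 7.14%, 4.76% and 14.3% of them, beside 13.6%, 16.7%, 13.6% and 19.7% of all members. Without a filter on low counts 20, 17 and 21 were called in the last 3 of these, and the cause was not tested. Leaving out 1 replicate gave 6 to 10, 7 to 12, 4 to 7 and 8 to 13. The lowest were 7 without 3xTg-D replicate 2, 4 without WT-S replicate 2 (5 without 3xTg-S replicate 2, 3 or 4) and 8 without 3xTg-S replicate 1. The strain by age interaction called 1 member, Gm9625, with the DESeq2 likelihood ratio test (adjusted p = 0.00260) or no filter (0.00149), and 0 to 1 with a replicate left out. That 1 was Gm9625 without WT-8M replicate 2 or WT-D replicate 1 or 3, and Zfp457 without WT-8M replicate 3. WT-S against WT-D and the strain by treatment interaction called 0 in every alternative. The median WT spread was 0.136 above 5 CPM. No paired analysis was run because the labels give the groups no shared replicate numbers. Each animal has a number of its own. At 10 months these numbers pass through the groups in turn, but no label says that neighbouring numbers mark a set. At these depths members near 1 CPM rest on few counts.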
